A study of Mus musculus with 8 samples.

Results

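Sphingolipids are membrane lipids built on a sphingoid base, and 38 mouse genes that encode enzymes making or remodelling them outside the lysosome are described here in purified retinal ganglion cells of mice deficient in NPC1, the lysosomal cholesterol exporter, and of wildtype mice. The genes were picked by symbol: enzymes of ceramide, cerebroside, ganglioside, sphingomyelin and sphingosine metabolism, all 38 of which were found among 24942 genes in the deposited table. Retinal ganglion cells are the neurons whose axons form the optic nerve. They were caught on antibody-coated plates (immunopanning) from mice at postnatal day 8, and RNA was taken at once, with no culture and no treatment named. Of the 8 libraries, 4 were from NPC1-deficient mice and 4 from wildtype littermates, of the strain that the labels write as balb/cnctr-npc1m1n/j. The labels say neither how many animals went into a library nor that each library had its own animals, and the p-values below therefore speak only for the spread among these 8. Mice of this kind carry the defect in every cell of the body, not in the ganglion cells alone.

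Ceramide is made from serine and fatty acyl chains in the endoplasmic reticulum, then turned into sphingomyelin or into glucosylceramide in the Golgi. Sugars and sialic acids added to glucosylceramide give lactosylceramide and the gangliosides, which are abundant in neuronal membranes. Breakdown runs mainly in the lysosome, and in Niemann-Pick disease type C, the disorder of NPC1 loss, sphingosine and gangliosides build up together with cholesterol. The comparison asks whether the genes for the enzymes outside the lysosome had another RNA level in the deficient neurons.

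None of the 36 genes with enough reads to be tested passed the test for a difference between NPC1-deficient and wildtype libraries, adjusted over all genes, and most intervals leave room only for small changes. Degs1, the desaturase that completes ceramide, B4galnt1, the transferase that opens the complex ganglioside branches, and St3gal5, which makes the first ganglioside, led the list per kilobase of exon. Cers5, a ceramide synthase, was the only gene whose NPC1-deficient libraries all lay above all wildtype libraries. It stood at 1.09 times the wildtype level (95% interval 1.01 to 1.17, before adjustment over all genes). Over all genes tested, 4.27% had groups without overlap.

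Libraries held 35416750 to 41875855 reads in the NPC1-deficient group and 33030175 to 44050118 in the wildtype group. The deposited values are reads divided by 1 factor for each library and are called normalized reads below. Npc1 itself read 139.8, 70.05, 67.59 and 66.08 normalized reads in NPC1-deficient 1 to 4, against 706.7, 753.8, 830.7 and 856.7 in wildtype 1 to 4, which is 10.9% of the wildtype mean (log2 difference -3.25, limma adjusted p = 3.23e-05). A label field for the strain goes against the titles: it reads homozygous for libraries 3 and 4, NPC1-deficient and wildtype alike, and wildtype for libraries 1 and 2. Grouped that way, Npc1 had a log2 difference of -0.18 (limma adjusted p = 0.951), and the titles were used. Ganglion cell markers were high in every library, with 12 of 12 tested and a summed level of 415200 to 442900 in NPC1-deficient and 389000 to 415900 in wildtype libraries. Among other retinal cells, 12 of 12 microglial markers had a negative log2 difference, with summed levels of 2633 to 4242 in NPC1-deficient and 3681 to 14770 in wildtype libraries. So did 8 of 8 rod markers, with sums of 1879 to 2423 in NPC1-deficient and 3093 to 7770 in wildtype libraries, and 7 of 7 amacrine markers, with 1413 to 2096 in NPC1-deficient and 2446 to 4719 in wildtype libraries. None of these passed the adjusted threshold. Of the markers listed for 12 cell types, Calb1 (horizontal list) and Apoe (Mueller list) did, while 0.104% of all genes did. Both were lower in NPC1-deficient libraries. Lhx1 and Onecut1, also horizontal markers, averaged 4.31 and 6.96 in NPC1-deficient and 8.38 and 8.25 in wildtype libraries. Calb1 alone thus does not speak for horizontal cells. In wildtype 1 to 4, Apoe read 1340, 1810, 2036 and 3143. Microglial sums there were 3681, 9970, 8530 and 14770, and Rlbp1 of the Mueller list read 983.7, 649.9, 757.9 and 514. Which cells gave the Apoe reads was not tested. All tested markers of bipolar cells (7), Mueller glia (5), endothelium (4), cones (3) and horizontal cells (1) were negative too. Mueller sums were 16280 to 17370 in NPC1-deficient and 18650 to 19610 in wildtype libraries. Within them the widest gap in means was that of Apoe, at 814 in NPC1-deficient and 2082 in wildtype libraries. The means in the same order were 7242 and 7812 for Glul, 8167 and 8234 for Dkk3, and 516 and 726 for Rlbp1. For Slc1a3 they were 138 and 253, and for Aqp4, which was not tested, 8.85 and 7.18. Astrocyte, oligodendrocyte and pericyte markers went both ways. No marker was under 3 normalized reads in every library. The part of these cells in the values below was not tested, and in RNA from many cells, fewer cells of a type and less RNA per cell cannot be told apart. RNA of the sex chromosomes also differed between most wildtype libraries and the NPC1-deficient libraries. Xist, which is read from the inactive X chromosome of females, had 68.1, 3.0, 1.09 and 0 normalized reads in NPC1-deficient 1 to 4, against 595, 18.2, 238 and 164 in wildtype 1 to 4. The sum of 4 Y-linked genes was 2597, 3479, 3705 and 3788 in NPC1-deficient 1 to 4, against 45.59, 3093, 1241 and 1508 in wildtype 1 to 4. Wildtype 1 stood farthest apart, and wildtype 3 and 4 also lay below every NPC1-deficient library in Y-linked RNA. Wildtype 2 lay within the NPC1-deficient range in both. The part of this mix in the values below was not tested.

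**Figure D1:**
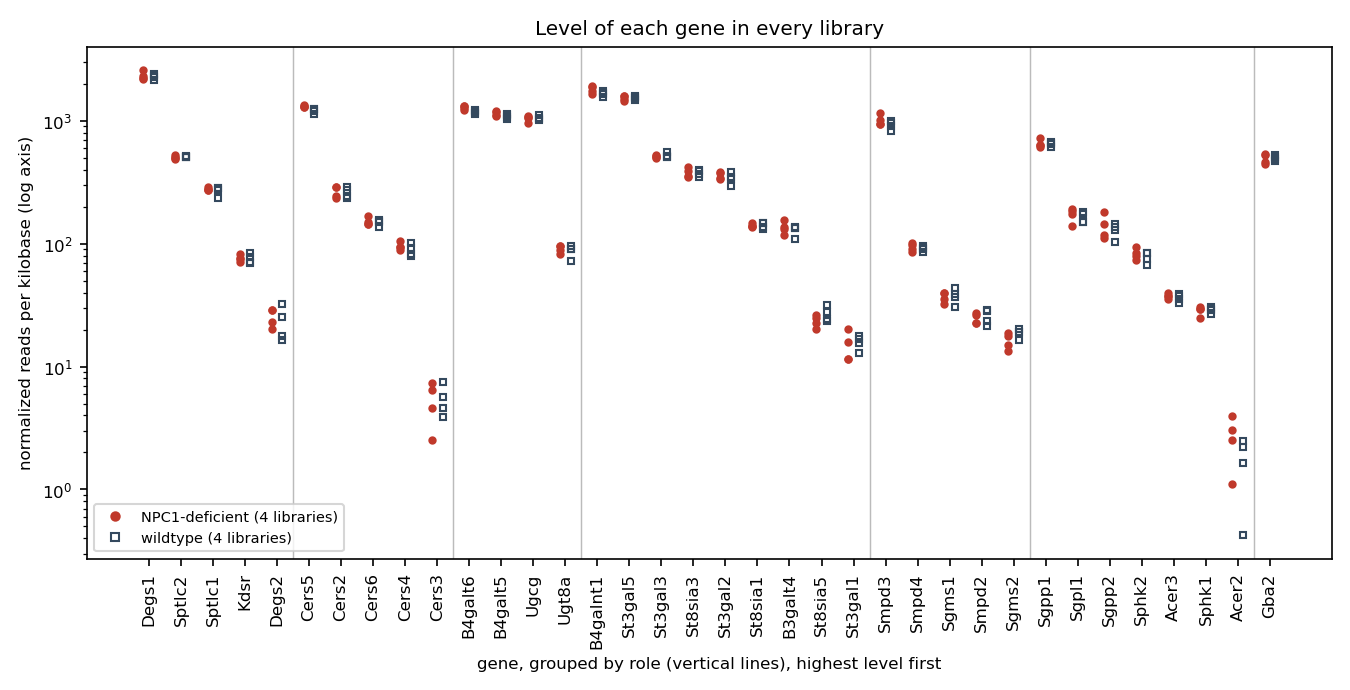
Level of 36 genes in each of the 8 libraries, as normalized reads per kilobase of exonic length on a log axis, grouped by role and ordered by level within a role; filled circles are NPC1-deficient and open squares wildtype libraries. The genes span from Degs1, at means of 2318 in NPC1-deficient and 2282 in wildtype libraries, to Acer2, at 2.66 in NPC1-deficient and 1.69 in wildtype libraries, and the groups overlap in every gene but Cers5.

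Levels differed far more between genes than between genotypes, as the plot of levels by library shows. Of the 38 genes, 36 reached a mean of 10 normalized reads and were tested, and Sptlc3 and Cers1 did not. Of the 36, 0 were called with limma at an adjusted p under 0.05, against 0.104% of the 15386 genes tested, which is 16 genes. The edgeR test on the recovered reads also called 0 of them, against 0.104% of all genes, and DESeq2 called 0, against 1.6% of all genes. At an unadjusted p under 0.05, 2 of the 36 passed with each of limma, edgeR and DESeq2, Cers5 and B4galt6, against 6.76% of all genes with limma. The count of 2 in 36 is below that share. The NPC1-deficient and wildtype values did not overlap in 1 of the 36, against 4.27% of all genes. The log2 difference was positive in 24 and negative in 12, with a median of 0.027, while over all genes tested 7994 were positive and 7392 negative, with a median of 0.0050.

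Because no gene was called, the intervals say more than the p-values. The 95% interval of the log2 difference held 0 in 34 of 36 genes. It lay wholly between -0.25 and 0.25, that is between 0.841 and 1.19 times the wildtype level, in 19 genes. It lay between -0.5 and 0.5, or 0.707 to 1.41 times, in 31 genes, all but Degs2, Cers3, St3gal1, Sgms2 and Acer2. Those were the 5 lowest of the 36 in normalized reads, and for Acer2 even a change of 1 on the log2 scale lay within the interval. The median width to either side was 0.172, from 0.098 in Sptlc2 to 1.09 in Acer2.

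**Figure D2:**
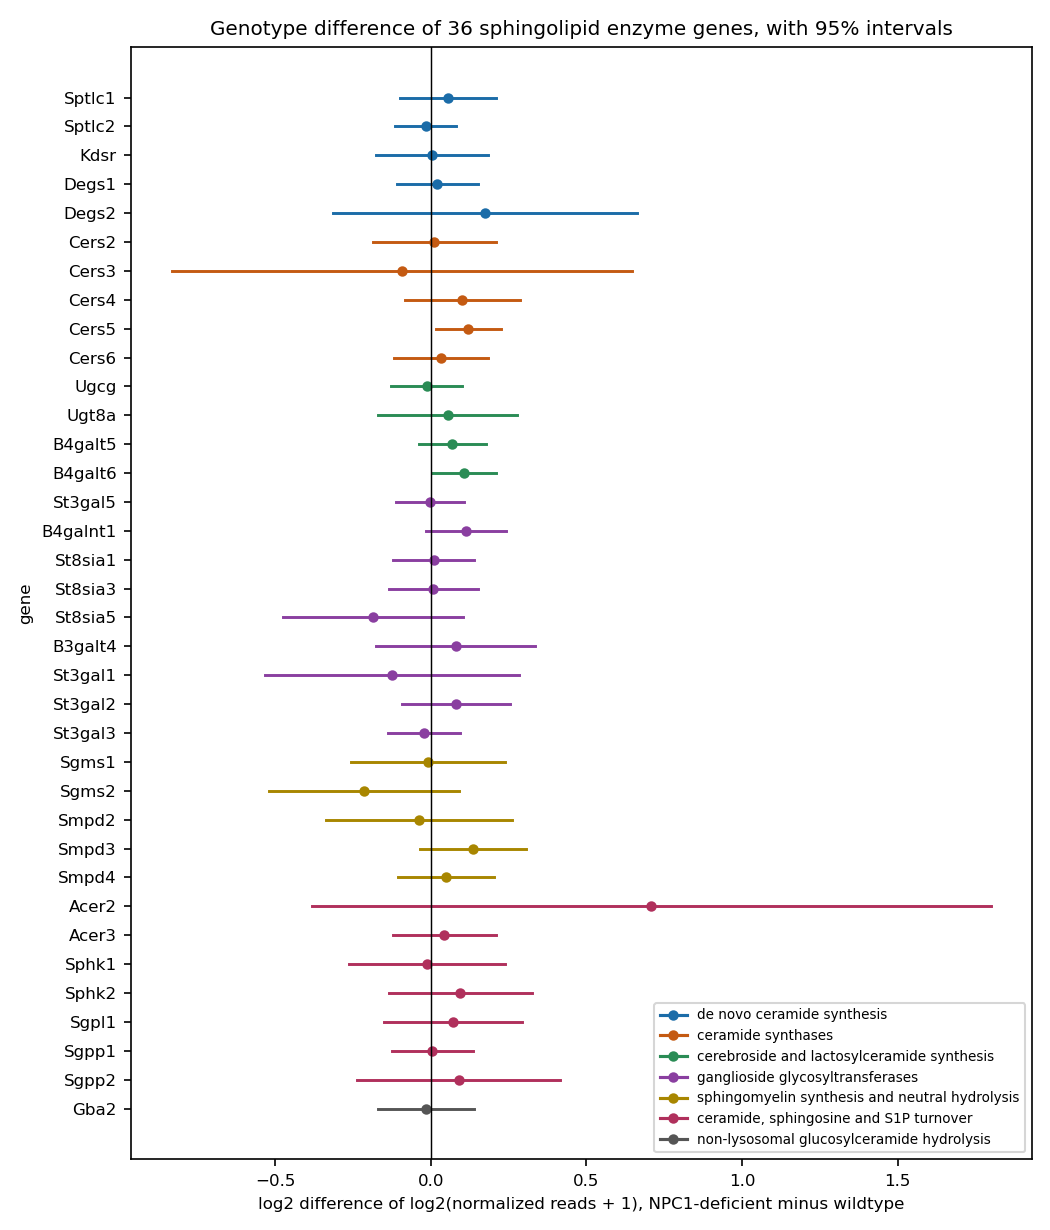
Difference between NPC1-deficient and wildtype libraries for the 36 genes tested, with its 95% interval from limma (4 libraries in each group), on the scale of log2(normalized reads + 1); colours give the role. The intervals of 34 genes cross the line at 0, and those of Cers5 and B4galt6 do not before adjustment over all genes.

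The pathway starts with serine palmitoyltransferase, which joins serine to a fatty acyl chain; Sptlc1 is its shared subunit and Sptlc2 and Sptlc3 are alternative catalytic subunits. Sptlc1 (chromosome 13, 53332748 to 53377397, minus strand, mm10) had 981.9, 972.6, 1032 and 969.6 normalized reads in NPC1-deficient 1 to 4, against 836.7, 974.8, 1002 and 1003 in wildtype 1 to 4. Wildtype 1 lay below the other 7 libraries, which overlapped. On the log2 scale it differed by 0.055 (SE 0.071), with the smallest p of the 5 de novo genes tested (limma adjusted p = 0.995), and by -0.0065 once wildtype 1 was left out. Sptlc2 had the narrowest interval of the 36 genes, at 4090 ± 144 in NPC1-deficient and 4136 ± 19.9 in wildtype libraries (SD, n = 4 each), with -0.12 to 0.082 on the log2 scale. Sptlc3 was practically unread: 1 read over the 4 NPC1-deficient libraries (NPC1-deficient 4) and 1 over the 4 wildtype libraries (wildtype 3), each with an exact Poisson 95% interval of 0.0253 to 5.57 reads that covers counting error only. A library without a read allows up to 3 reads, or 2.69 to 3.42 normalized reads depending on the library.

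The promoters of these alternative subunits are shown because Sptlc2 was well read in every library and Sptlc3 was practically unread. Each run covers 250 bases before and 50 after the start of the gene in RefSeq (build GRCm38.p6), 5′ to 3′ on the gene's own strand, with CG dinucleotides in capitals.
Sptlc2 (chr12:87388306-87388605, minus strand): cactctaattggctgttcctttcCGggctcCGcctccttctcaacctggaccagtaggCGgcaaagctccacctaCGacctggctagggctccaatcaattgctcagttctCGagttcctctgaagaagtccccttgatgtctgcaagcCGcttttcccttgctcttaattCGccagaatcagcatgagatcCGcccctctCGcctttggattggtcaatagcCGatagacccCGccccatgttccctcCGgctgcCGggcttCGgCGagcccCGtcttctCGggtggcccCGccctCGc
Sptlc3 (chr2:139493663-139493962, plus strand): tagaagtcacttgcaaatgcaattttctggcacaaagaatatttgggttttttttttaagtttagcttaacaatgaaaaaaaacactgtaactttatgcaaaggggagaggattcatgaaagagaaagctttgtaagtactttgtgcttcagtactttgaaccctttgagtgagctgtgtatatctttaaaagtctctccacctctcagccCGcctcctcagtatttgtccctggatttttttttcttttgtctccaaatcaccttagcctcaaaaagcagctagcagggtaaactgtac
The Sptlc2 promoter holds 19 CG dinucleotides and is 59.3% G and C, and the Sptlc3 promoter holds 1 and is 37.3% G and C. The motif searched was CG, which reads the same on both strands. Promoters of 31 of the 38 genes were matched, and 26 of the 31 held at least 10 CG dinucleotides, as do 43.5% of 32851 promoters of the same length. Their median was 25, against 7 over all promoters. Degs1 and St3gal5, near the top of the list per kilobase, hold 21 and 33, while Acer2 and Cers1, both near the bottom, hold 31 and 22. No promoter was matched for B4galnt1, B4galt6 and Smpd3, at 1724, 1225 and 968 normalized reads per kilobase over all libraries. None was matched either for St8sia3, St3gal2, St8sia5 and St3gal1, at 377, 349, 25.1 and 15.3. Part of the top of the list is thus missing from these counts. Whether the count goes with the level was not tested. The 5 below 10 were Sptlc3, Sgms2, Acer3, Sphk1 and Cers3, at 0.086, 17.5, 36.8, 28.6 and 5.3 normalized reads per kilobase over all libraries. Only 1 promoter was counted for each gene, although Sgms2 has 6 listed, Sphk1 5 and Acer3 2. The counts therefore describe the promoter taken and not every start of a gene. Promoter letters carry no measurement of the deficiency.

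The remaining de novo steps are the reduction by Kdsr and the desaturation by Degs1, with Degs2 as the enzyme that can also hydroxylate. Degs1 had the highest level per kilobase of all 38 genes, at the 93.6th percentile of the genes tested. It read 6657, 5751, 5635 and 5980 normalized reads in NPC1-deficient 1 to 4, against 5582, 6046, 5821 and 6198 in wildtype 1 to 4. NPC1-deficient 1 was the highest library and wildtype 1 the lowest, and the other 6 were interleaved. Between the groups the log2 difference of Degs1 was 0.021 (95% interval -0.11 to 0.15). Kdsr averaged 618.3 ± 39.3 in NPC1-deficient and 618.0 ± 56.2 in wildtype libraries (SD, n = 4 each). Degs2 was low, at 65.0 ± 11.1 in NPC1-deficient and 59.0 ± 18.8 in wildtype libraries, and Evl, on the other strand, overlaps 10.8% of its exonic length; this library type cannot separate their reads. Of the 5 de novo genes tested, the log2 difference was positive in 4 and negative in 1, with a median of 0.021.

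Ceramide synthases attach a fatty acyl chain to the sphingoid base, and the 6 paralogs differ in the chain lengths they prefer. Cers5, which prefers long chains such as palmitate, was the highest per kilobase, at 1311 in NPC1-deficient and 1208 in wildtype libraries. Cers5 (chromosome 15, 99734881 to 99772885, minus strand) read 4585, 4568, 4696 and 4724 normalized reads in NPC1-deficient 1 to 4, against 4036, 4210, 4421 and 4443 in wildtype 1 to 4. All 4 NPC1-deficient libraries lay above all 4 wildtype libraries, with a gap between 4568 and 4443 that is smaller than the spread among the wildtype libraries. The log2 difference was 0.12 (SE 0.048, 95% interval 0.015 to 0.22), and it missed the threshold (limma adjusted p = 0.596). Its adjusted p lay between 0.351 and 1.0 over the alternatives tried, including edgeR and DESeq2. The difference was 0.098 without NPC1-deficient 1 and wildtype 1, and it was positive both within libraries 3 and 4 (0.088) and within libraries 1 and 2 (0.15). Beside it, the 12 ganglion cell markers had a median log2 difference of 0.064, with 10 positive and 2 negative, and none was called.

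Of the 5 ceramide synthases tested, 4 had a positive and 1 a negative log2 difference, with a median of 0.033. Their levels spread over a wide range. Cers5 made up 71.8% ± 0.50 of the summed per-kilobase level of the 6 genes in NPC1-deficient and 70.6% ± 0.39 in wildtype libraries (SD, n = 4 each). Cers2, the synthase for very long chains that is known from myelin and liver, made up 14.4% ± 1.22 in NPC1-deficient and 15.2% ± 0.82 in wildtype libraries. The order of the synthases was the same in both genotypes. Cers6, which like Cers5 prefers palmitate, made up 8.31% ± 0.74 in NPC1-deficient and 8.68% ± 0.76 in wildtype libraries, and Cers4 made up 5.20% ± 0.45 in NPC1-deficient and 5.18% ± 0.41 in wildtype libraries. Cers3, known from skin and testis, was close to the filter at 17.03 ± 6.93 normalized reads in NPC1-deficient and 17.5 ± 5.06 in wildtype libraries. The ratio of Cers6 to Cers5 within a library, which does not depend on scaling, was 0.290 ± 0.026 in NPC1-deficient and 0.308 ± 0.027 in wildtype libraries, and the groups overlapped.

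Cers1, the synthase that other work ties most closely to neurons, had 1 read in the NPC1-deficient group (NPC1-deficient 2) and 1 in the wildtype group (wildtype 1), with the same exact Poisson interval of 0.0253 to 5.57. That value has a limit in the annotation. In GENCODE M21, 42.5% of the exonic length of Cers1 is shared with Gdf1 on the same strand. Gdf1 is listed here under an identifier that M21 does not hold, at 9.08 to 12.4 normalized reads in NPC1-deficient and 4.49 to 9.32 in wildtype libraries. The annotation used for counting is not given in the sources used here, and whether reads of Cers1 were set aside as shared was not tested.

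Glucosylceramide is made by Ugcg and turned into lactosylceramide by B4galt5 or B4galt6, while Ugt8a makes galactosylceramide, the cerebroside of myelin. B4galt6 (chromosome 18, 20684599 to 20746404, minus strand) was the highest of the 4 per kilobase, at 1271 in NPC1-deficient and 1180 in wildtype libraries. It read 7627, 7572, 7033 and 7297 normalized reads in NPC1-deficient 1 to 4, against 6610, 6724, 7122 and 6947 in wildtype 1 to 4. NPC1-deficient 1, 2 and 4 lay above every wildtype library, and NPC1-deficient 3 lay below wildtype 3. Its log2 difference of 0.11 (SE 0.047, 95% interval 0.0049 to 0.21) was not called (limma adjusted p = 0.685, and 0.331 to 1.0 over the alternatives). The difference was 0.026 within libraries 3 and 4, against 0.19 within libraries 1 and 2, and 0.075 without NPC1-deficient 1 and wildtype 1.

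B4galt5, the paralog that acts on the same substrate, stood nearly level with B4galt6, at 1142 per kilobase in NPC1-deficient and 1089 in wildtype libraries, and its interval also lay mostly above 0. It averaged 4920 ± 201 normalized reads in NPC1-deficient and 4690 ± 177 in wildtype libraries, with a log2 interval of -0.040 to 0.18. The ratio of B4galt5 to B4galt6 was 0.668 ± 0.045 in NPC1-deficient and 0.686 ± 0.045 in wildtype libraries (SD, n = 4 each), and the groups overlapped. Ugcg, the committed step of glycosphingolipid synthesis, averaged 5424 ± 287 in NPC1-deficient and 5472 ± 211 in wildtype libraries, with a log2 interval of -0.13 to 0.10. Changes of Ugcg beyond 0.915 or 1.07 times the wildtype level are thus outside its interval. Ugt8a read 409.9 ± 29.4 in NPC1-deficient and 396.6 ± 49.3 in wildtype libraries, and the 7 oligodendrocyte markers read beside it summed to 2077 to 2286 in NPC1-deficient and 2075 to 2375 in wildtype libraries. Of these 4 genes, 3 had a positive and 1 a negative log2 difference, with a median of 0.061.

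**Figure D3:**
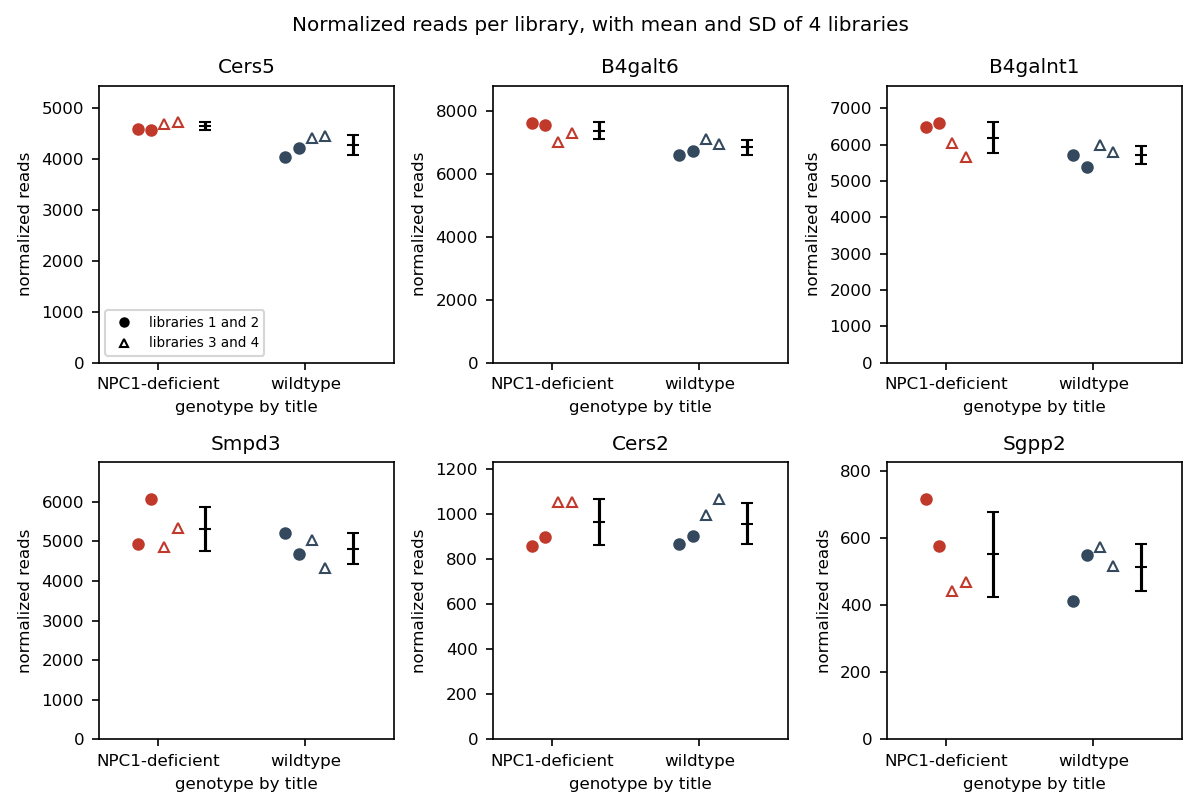
Normalized reads of 6 genes in each library, with mean and SD of 4 libraries (bar); filled circles are libraries 1 and 2, open triangles libraries 3 and 4, and every axis starts at 0. The Cers5 groups do not overlap (4568 to 4724 in NPC1-deficient, 4036 to 4443 in wildtype), the B4galt6, B4galnt1 and Smpd3 groups do, Cers2 separates triangles from circles, and in Sgpp2 the order of the genotypes differs between triangles and circles.

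The gangliosides begin with St3gal5, which sialylates lactosylceramide. It averaged 4022 ± 191 normalized reads in NPC1-deficient and 4027 ± 122 in wildtype libraries, and its log2 interval was -0.11 to 0.11. From there B4galnt1 leads toward the complex gangliosides and St8sia1 opens the series with a second sialic acid. B4galnt1 (chromosome 10, 127165225 to 127172330, plus strand) was the highest of the 9 ganglioside genes per kilobase, at 1792 in NPC1-deficient and 1656 in wildtype libraries. It read 6487, 6581, 6034 and 5656 normalized reads in NPC1-deficient 1 to 4, against 5702, 5392, 5997 and 5785 in wildtype 1 to 4. NPC1-deficient 1 and 2 stood above the rest, NPC1-deficient 3 lay just above the highest wildtype library, and NPC1-deficient 4 lay below wildtype 1, 3 and 4. B4galnt1 differed by 0.11 on the log2 scale (SE 0.058, 95% interval -0.015 to 0.24), short of the threshold (limma adjusted p = 0.813). In GENCODE release M21, Slc26a10 on the other strand overlaps 20.7% of its exonic length, so reads of that gene can be among its values.

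St8sia1 averaged 1318 ± 46.0 in NPC1-deficient and 1310 ± 72.6 in wildtype libraries. The ratio of B4galnt1 to St8sia1, the entry enzymes of the complex and the disialo branch, was 4.97, 4.75, 4.63 and 4.42 in NPC1-deficient 1 to 4, against 4.51, 4.38, 4.39 and 4.20 in wildtype 1 to 4. NPC1-deficient 1, 2 and 3 lay above every wildtype library, and NPC1-deficient 4 lay within them. B3galt4, which adds galactose to carry the chain on, averaged 213.6 ± 24.5 in NPC1-deficient and 201.9 ± 20.8 in wildtype libraries. Its difference of 0.080 on the log2 scale came down to 0.0025 without wildtype 1, its lowest library.

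Among the 7 sialyltransferases, St3gal5 made up 51.8% ± 1.93 of the summed per-kilobase level in NPC1-deficient and 52.0% ± 1.32 in wildtype libraries. St3gal3, which acts largely on glycoproteins, made up 17.3% ± 0.55 in NPC1-deficient and 17.6% ± 0.90 in wildtype libraries. These shares differed by less than their spread. St8sia3, a brain oligosialyltransferase, made up 12.7% ± 1.02 in NPC1-deficient and 12.7% ± 0.55 in wildtype libraries. St3gal2, which caps the complex gangliosides, made up 12.1% ± 0.68 in NPC1-deficient and 11.5% ± 1.17 in wildtype libraries. The paralog with the same reaction, St3gal1, was low at 101.0 ± 27.7 normalized reads in NPC1-deficient and 108.0 ± 14.3 in wildtype libraries. St8sia5, which adds further sialic acids to complex gangliosides, had the most negative difference of the 9, -0.19 on the log2 scale (95% interval -0.48 to 0.10), at 127.1 ± 13.7 in NPC1-deficient and 145.2 ± 19.7 in wildtype libraries. Over the 9 genes the difference was positive in 5 and negative in 4, with a median of 0.0080.

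Sphingomyelin is made by Sgms1 in the Golgi and Sgms2, which also works at the plasma membrane, and is cut at neutral pH by Smpd2, Smpd3 and Smpd4. Smpd3, the neutral sphingomyelinase known from neurons, was the highest of the 5 per kilobase and made up 89.5% ± 1.35 of the 3 hydrolases in NPC1-deficient and 88.8% ± 0.75 in wildtype libraries. It read 4931, 6086, 4872 and 5344 normalized reads in NPC1-deficient 1 to 4, against 5213, 4692, 5049 and 4336 in wildtype 1 to 4. NPC1-deficient 2 was the highest and wildtype 4 the lowest, and the other 6 overlapped. A log2 difference of 0.14 resulted (SE 0.078, 95% interval -0.034 to 0.31, limma adjusted p = 0.877), and leaving out NPC1-deficient 2 gave 0.069.

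Both synthases were far lower per kilobase: Sgms1 stood at 36.8 in NPC1-deficient and 37.2 in wildtype libraries, and Smpd3 at 1015 in NPC1-deficient and 922 in wildtype libraries. Sgms1 averaged 388.0 ± 37.7 normalized reads in NPC1-deficient and 392.1 ± 55.2 in wildtype libraries, and Sgms2 averaged 101.3 ± 15.03 in NPC1-deficient and 117.1 ± 10.01 in wildtype libraries. Sgms2 had the most negative difference of the 36 genes, -0.22 on the log2 scale (95% interval -0.52 to 0.089), with overlapping groups. The ratio of Ugcg to Sgms1, the rival uses of ceramide, was 14.0 ± 0.95 in NPC1-deficient and 14.2 ± 2.59 in wildtype libraries. Smpd4, a sphingomyelinase of the endoplasmic reticulum and nuclear envelope, averaged 849.0 ± 61.9 in NPC1-deficient and 819.6 ± 35.5 in wildtype libraries. Smpd2 averaged 110.1 ± 10.8 in NPC1-deficient and 113.5 ± 15.6 in wildtype libraries, and Mical1 on the other strand overlaps 20.3% of its exonic length. Of the 5 genes, 2 had a positive and 3 a negative log2 difference, with a median of -0.0094.

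Ceramide is returned to sphingosine by the ceramidases Acer2 and Acer3, sphingosine is phosphorylated to the signalling lipid S1P (sphingosine 1-phosphate) by Sphk1 and Sphk2, and S1P is dephosphorylated by Sgpp1 and Sgpp2 or cleaved for good by the lyase Sgpl1. Sgpp1 was the highest of these 7 per kilobase, and it read 4083, 3551, 3596 and 3436 normalized reads in NPC1-deficient 1 to 4, against 3625, 3730, 3463 and 3771 in wildtype 1 to 4. Apart from NPC1-deficient 1, the highest, the libraries were interleaved, and the log2 difference was 0.0052 (95% interval -0.13 to 0.14). Acer2, the Golgi ceramidase, had the largest positive difference of the 36 genes at the lowest level of them: 18.2, 8.01, 28.3 and 21.7 normalized reads in NPC1-deficient 1 to 4, against 16.0, 3.03, 17.7 and 11.7 in wildtype 1 to 4. NPC1-deficient 1, 3 and 4 lay above every wildtype library, and NPC1-deficient 2 lay below all wildtype libraries except wildtype 2. The log2 difference of 0.71 (SE 0.50, limma adjusted p = 0.934) came down to 0.21 without wildtype 2 and went up to 1.05 without NPC1-deficient 2.

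Acer3, the second alkaline ceramidase of the list, averaged 572.2 ± 26.6 in NPC1-deficient and 556.0 ± 38.9 in wildtype libraries. Sphk2, the kinase also found in the nucleus, made up 74.2% ± 1.5 of the kinase level per kilobase in NPC1-deficient and 72.7% ± 3.02 in wildtype libraries, and Dbp and Rpl18 on the other strand overlap 21.9% of its exonic length. Both kinases and the lyase overlapped between the genotypes. Sphk1 averaged 136.3 ± 12.7 normalized reads in NPC1-deficient and 137.1 ± 7.25 in wildtype libraries, and Sgpl1 averaged 1057 ± 142 in NPC1-deficient and 1002 ± 96.2 in wildtype libraries. Of these 7 turnover genes, 6 had a positive and 1 a negative log2 difference, with a median of 0.072. Gba2, the glucosylceramidase that works outside the lysosome, read 2416, 2367, 2075 and 1989 normalized reads in NPC1-deficient 1 to 4, against 2347, 2175, 2284 and 2108 in wildtype 1 to 4. The groups overlapped and the difference was -0.015 on the log2 scale (95% interval -0.17 to 0.14).

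The label conflict gave a second split of the same 8 libraries. Between libraries 3 and 4, called homozygous by the strain field, and libraries 1 and 2, called wildtype, 1 of the 36 genes was called with limma, against 1.76% of all genes. That gene was Cers2, at 1052, 1055, 993.8 and 1069 normalized reads in NPC1-deficient 3, NPC1-deficient 4, wildtype 3 and wildtype 4, against 859.4, 898.6, 867.4 and 901.2 in NPC1-deficient 1, NPC1-deficient 2, wildtype 1 and wildtype 2. These groups did not overlap, with a log2 difference of 0.24 (limma adjusted p = 0.0419), while between the genotypes by title it was 0.011 (95% interval -0.19 to 0.21). Of the 36 genes, 7 had an unadjusted p under 0.05 in this split, against 16.9% of all genes, and 4 did not overlap, against 9.52% of all genes. The 4 were Cers2, St8sia3, Smpd4 and Sgpl1. What sets libraries 3 and 4 apart from libraries 1 and 2 is not given in the labels beyond that field.

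The genotype difference was also read within each of these pairs of libraries. Its sign was the same in both pairs for 15 of the 36 genes and opposite for 21, and over all genes with a value in both pairs 53.7% were opposite. A test of the difference between the pairs, added after the data were seen, called 0 of the 36 with limma, against 0.078% of all genes, and 3 had an unadjusted p under 0.05, against 13.4% of all genes. The 3 were Sgpp2, Cers4 and B4galnt1. Sgpp2, the inducible S1P phosphatase, read 441.5 and 468.8 normalized reads in NPC1-deficient 3 and 4 against 574.3 and 515.8 in wildtype 3 and 4, but 718.7 and 578.4 in NPC1-deficient 1 and 2 against 412.6 and 549.0 in wildtype 1 and 2. The NPC1-deficient values lay below the wildtype values in libraries 3 and 4 and above them in libraries 1 and 2. Sgpp2 thus differed by -0.26 on the log2 scale within libraries 3 and 4 and 0.44 within libraries 1 and 2, and the difference between these was -0.70 (SE 0.20, limma adjusted p = 0.203). Cers4 differed by -0.086 within libraries 3 and 4 and by 0.29 within libraries 1 and 2, and B4galnt1 by -0.012 within libraries 3 and 4 and by 0.24 within libraries 1 and 2.

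**Figure D4:**
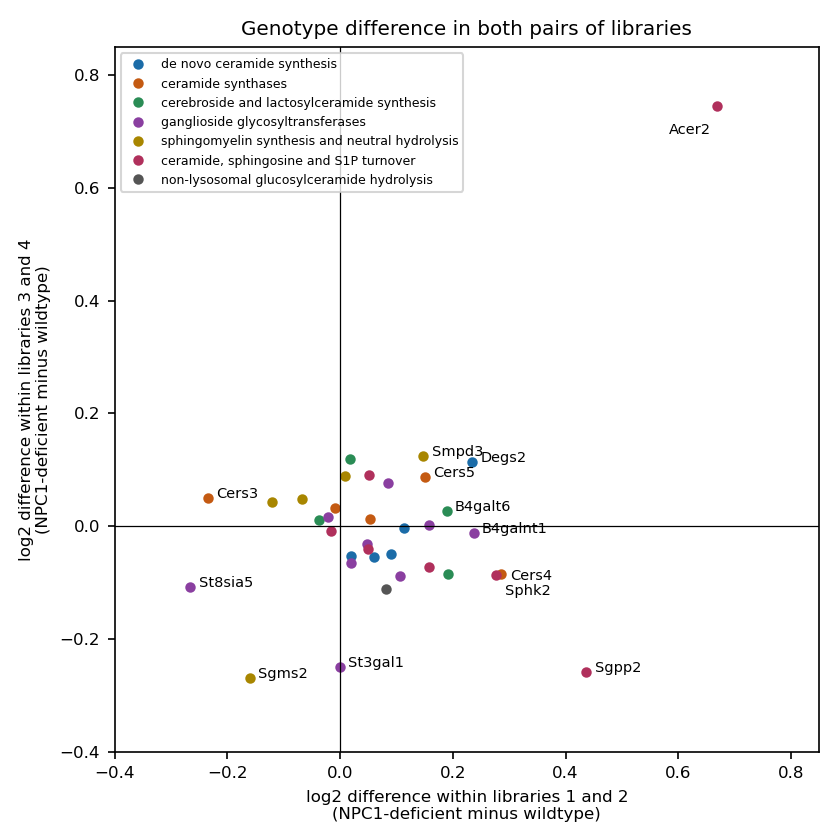
Genotype difference (NPC1-deficient minus wildtype, log2 of normalized reads + 1) of the 36 genes within libraries 1 and 2 (horizontal) and within libraries 3 and 4 (vertical), coloured by role, with genes far from the centre named. Points in the lower right, such as Sgpp2, have a positive difference in libraries 1 and 2 and a negative one in libraries 3 and 4; 21 of 36 genes have opposite signs.

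The neighbours of these enzymes in the pathway were read as 5 lists with 55 genes. Of these, 49 were tested and 0 called, against 0.104% of all genes. An unadjusted limma p under 0.05 was found for 1 lysosomal gene, 2 regulators of serine palmitoyltransferase and 2 S1P receptor genes. It was found for 0 transfer and export genes and 0 genes of other branches, against 6.76% of all genes. Of the 15 lysosomal sphingolipid hydrolases and activators, which carry out the breakdown that is impaired in Niemann-Pick disease type C, 6 had a positive and 9 a negative log2 difference, with a median of -0.028. Glb1 and Asah1, the lysosomal galactosidase and ceramidase, had log2 differences of 0.11 and 0.11, neither called. Of 6 regulators of serine palmitoyltransferase, 4 were positive and 2 negative. The ORM protein gene Ormdl3, whose product holds that enzyme back, read 1954, 2232, 2335 and 2278 in NPC1-deficient 1 to 4, against 2671, 2571, 2586 and 2343 in wildtype 1 to 4. These groups did not overlap, which was also so for 4.27% of all genes. The log2 difference of -0.21 was not called (SE 0.067, limma adjusted p = 0.337). Sptssb, a small activating subunit, averaged 116.2 ± 42.7 in NPC1-deficient and 166.8 ± 12.3 in wildtype libraries (limma adjusted p = 0.413).

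Of 8 genes for sphingolipid transfer and export, 7 had a positive and 1 a negative difference, the negative one being Col4a3bp, the ceramide transfer protein, at -0.073 on the log2 scale. Gltpd1, the ceramide phosphate transfer protein, had 0.082, and its groups did not overlap either. Mfsd2b, an S1P exporter of blood cells, had 0.24. Of the 4 S1P receptor genes tested of 5 listed, 1 was positive and 3 negative. S1pr1 was low, at 21.6 ± 3.54 normalized reads in NPC1-deficient and 38.7 ± 13.0 in wildtype libraries, and S1pr2 averaged 319.6 ± 68.7 in NPC1-deficient and 244.5 ± 32.8 in wildtype libraries (limma adjusted p = 0.439 for S1pr1 and 0.667 for S1pr2). Of 16 tested genes of other branches, such as the lacto-series synthase B3gnt5, 12 were positive and 4 negative, with a median of 0.064. Plpp3 (listed as Ppap2b), a lipid phosphatase that can act on S1P, had the smallest p of these 16, at 81.7 ± 12.3 in NPC1-deficient and 104.8 ± 17.9 in wildtype libraries, a log2 difference of -0.35 (SE 0.17, limma adjusted p = 0.754). B3gnt5 averaged 1512 ± 270 in NPC1-deficient and 1296 ± 81.8 in wildtype libraries, with a log2 difference of 0.21, and the sialyltransferase St6galnac4 had 0.097. The groups of all 3 genes overlapped.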

How the data were processed

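Per the labels' protocols, libraries were made with the Illumina TruSeq RNA v2 kit, in which strand is not kept. The submitters' processing notes name, with no roles, the build mm10 and the tools CASAVA 1.8.2, HTSeq 0.5.4p3 and DESeq2 1.0.19; for the aligner and the annotation, not given in the sources used here. All deposited values are a normalized signal: reads divided by 1 factor for each library, as the values themselves show, and all 199536 came out as whole reads within 1e-06 of a read.

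Libraries were grouped by title. Genes with a mean of at least 10 were kept (15386 kept, 9556 removed), taken as log2(value + 1), which understates changes of low genes, and compared with limma 3.58.1 in R 4.3.3 (mean-variance trend, no covariate, two-sided, Benjamini-Hochberg over all genes, threshold 0.05). Recovered reads were also tested with edgeR 4.0.16, which called 16 genes, and DESeq2 1.42.0, which called 246. Normalized reads per kilobase used exonic lengths of GENCODE M21 on the same build, in which 24471 of 24942 identifiers (98.1%) and all 38 genes were found. The chi-square per degree of freedom between 2 libraries of a group was 4.5 for NPC1-deficient 3 and 4. For the other pairs it was 8.12 to 54.3, far above sampling noise. Each library was counted on its own, although the labels do not say whether libraries share animals. Other alternatives were pseudocounts of 0.5 and 5, quantile and upper-quartile scaling, no filter or a mean of at least 50, the replicate number as a block, the pair of libraries as a term, each pair alone, the groups of the strain field, and leaving out libraries.

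The 38 genes, the lists and the tests were chosen with earlier results of these data known. Values in every library were given for the gene with the highest level per kilobase and the gene with the smallest p in each role, for genes with an unadjusted p under 0.05 or without overlap, and for genes under the filter. Cers2 and Sgpp2 were added after their values were seen, and so was the test of the difference between the pairs of libraries; other pathway genes were the up to 3 with the smallest p in each list. A gene that this rule names is not reported here.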

Additional observations from a re-analysis of the deposited data

Results flagged for a closer look

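Each of the 38 genes was checked in each genotype for a library far from the other 3, which made 76 groups, and 6 stood out; chance gives about 1 in 20 groups. Wildtype 1 read 837 normalized reads of Sptlc1, against 974.8 to 1003 in the other wildtype libraries. The same library read 171 of B3galt4, against 210 to 216. The remaining 4 are single reads in genes that were otherwise unread: Sptlc3 at 1.03 in NPC1-deficient 4 and 0.932 in wildtype 3, and Cers1 at 1.0 in NPC1-deficient 2 and 1.14 in wildtype 1, with 0 in the other libraries of each group. A lone read beside zeros always stands out under this rule, so these 4 cannot be set against the 1 in 20.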

How the results depend on the processing

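None of the 36 genes was called under any of the 22 alternatives except the groups of the strain field, where 1 (Cers2) was called. The number of all genes called, 16 as reported, was 10 at a minimum mean of 50, 34 with the replicate number as a block, 99 with the library pair as a term, 335 within libraries 3 and 4, 57 within libraries 1 and 2, 271 by the strain field, 246 with DESeq2, 170 without NPC1-deficient 1 and wildtype 1, and 2 to 144 when each library was left out in turn, lowest without NPC1-deficient 3 and highest without wildtype 1. The cause was not tested. The replicate numbers gave no sign of pairing libraries. Same-numbered deviations from the group means correlated at -0.0169, -0.0325, -0.0229 and -0.0659, and no library correlated best with its own number. With 4 libraries in each group, such correlations cannot exclude a pairing, which the labels do not state. The block changed no call among the 36 genes. The median log2 difference of the 36 genes was 0.027 as reported and -0.0055 within libraries 3 and 4. Npc1 differed by -0.18 by the strain field, against -3.25 by title. Of 790 values of single genes under the alternatives, 760 stayed on the same side of the test's threshold and moved by less than the spread between libraries, some of them across 0, 29 moved by more, and 1 (Cers2 by the strain field) passed the threshold. The sign of the difference changed in 17 of 36 genes within libraries 3 and 4, in 13 without NPC1-deficient 1 and wildtype 1, and in 5 with quantile scaling, all at differences that were not called. With 4 libraries in each group, the intervals limit what could be seen, most of all for Acer2, Cers3, Degs2, St3gal1 and Sgms2.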
